A study of Mus musculus with 4 samples.

Results

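The genes described here encode the extracellular matrix of mouse pancreatic islets and the proteases and inhibitors that act on it. They were taken by symbol from a table of 24421 rows: all collagen and laminin chains, matrix metalloproteinases, tissue inhibitors of metalloproteinases (TIMPs) and ADAMTS proteases, together with Fn1, Dcn, Lum, Sparc, Spp1, Nid1, Nid2 and Hspg2, 109 genes in all. RNA sequencing was done on isolated islets of wild type C57BL/6 mice in 2 groups of 2 libraries. CytoEV islets received cytoEV daily for 48 h, and control islets are labelled untreated. The title of the series names small vesicles released by pro-inflammatory beta cells. All islets recovered overnight and were kept in RPMI medium with 11 mM glucose. The columns of the control libraries are named as if they held control vesicles, so whether control islets received vesicles of another kind is not settled by the labels. Nor is it stated how long control islets were cultured, or whether the samples within a group came from separate mice, and the p-values below measure only the spread between these samples.

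Islets lie in a matrix made by several cell types. Collagen IV, laminins, nidogens and perlecan form the basement membrane that lies along islet capillaries, and fibrillar collagens I, III and V, with fibronectin and small proteoglycans such as decorin and lumican, make up the interstitial matrix. Stellate cells, pericytes, fibroblasts and endothelial cells are known sources of much of it, and mouse beta cells depend on neighbouring endothelial cells for laminin. Metalloproteinases (MMPs) degrade or release matrix proteins, TIMPs inhibit them, and ADAMTS enzymes cleave proteoglycans and procollagens. In whole islets, fewer cells of a type and less RNA per cell cannot be told apart.

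The authors' values are CPM, counts scaled to a common library total, and each was a whole multiple of its column's smallest value. Taking that value as 1 read gave from 129726756 to 156183968 reads per library. The smallest value above 0 among the 109 genes came to 3 such reads, as for Mmp21 in cytoEV replicate 2. Whether 1 such read is 1 sequenced read was not tested. The tissue label was checked against hormone genes: Ins2, an insulin gene, stood at 140293.9 and 147714 CPM in cytoEV islets and at 148694.5 and 122278.6 CPM in control islets. The first principal component held 72.1% of the variance of the log2 values and separated the groups. Over the tested matrix genes, the median absolute difference on the log2(CPM + 1) scale was 0.10 between the cytoEV libraries and 0.17 between the control libraries.

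Matrix and matrix protease transcripts were mostly lower in cytoEV islets. Of the 109 genes, 66 reached 1 CPM in at least 2 of the 4 libraries and were tested with limma on log2(CPM + 1). At a Benjamini-Hochberg adjusted p under 0.05 over all 12780 tested genes, 26 of the 66 fell (39.4%), where 3.51% of all tested genes were lower. Called in either direction were 43.9% of the matrix genes and 6.67% of all tested genes. Mmp9 and Col6a6 were among the 3 of the 66 that rose (4.55%), where 3.16% of all tested genes were higher. The median log2 change was -0.42 for the 66 genes and 0.01 for all tested genes. In 47 of the 66 both cytoEV libraries lay below both control libraries (71.2%), against 26.1% of all tested genes, and in 5 both lay above, against 27.8% of all tested genes. Summed over the 109 genes, the level was 1124.9 and 1170.1 CPM in cytoEV islets and 1486.3 and 1423.8 CPM in control islets, so the mean sum in cytoEV islets was 78.9% of that in control islets.

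With the recovered reads in place of CPM, edgeR called 23 of the matrix genes lower and 3 higher, where it called 3.15% of all tested genes lower, 2.52% higher and 5.67% in either direction. DESeq2 called 30 lower and 3 higher, where it called 6.61% of all tested genes lower, 5.83% higher and 12.4% in either direction. Adamts5, Mmp19 and Col11a1 passed the filter through the control libraries alone and Mmp9 through the cytoEV libraries alone. Among the other 62 tested genes, 23 fell and 2 rose. The gene nearest the filter from above was Col8a2, whose second highest value was 1.07 CPM, and the nearest from below was Mmp16, at 0.986 CPM. Without cytoEV replicate 1, 14 genes fell and 2 rose, where 1.95% of all tested genes were lower and 1.68% higher. Without cytoEV replicate 2, 18 fell and 1 rose, where 2.37% of all tested genes were lower and 1.83% higher. Without control replicate 1, 31 fell and 3 rose, where 10.9% of all tested genes were lower and 8.19% higher. Without control replicate 2, 41 fell and 5 rose, where 15.8% of all tested genes were lower and 18.8% higher. With no filter on low values, 9 of all 109 genes were lower and 3 higher. For that setting only counts over all genes are given, in the closing section, and no share over all genes was computed. The genes that kept their call in every alternative that gave them a value were Adamts1, Adamts5, Col10a1, Col11a1, Col5a2 and Mmp9. Of these, Adamts5, Col11a1 and Mmp9 had passed the filter through 1 group alone. The filter was set on all 4 libraries also where a library was left out. With 2 against 2 libraries the smallest p of an exact permutation test is 0.333. The calls rest on limma, whose model has 2 residual degrees of freedom and draws on the spread of the other genes.

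**Figure D1:**
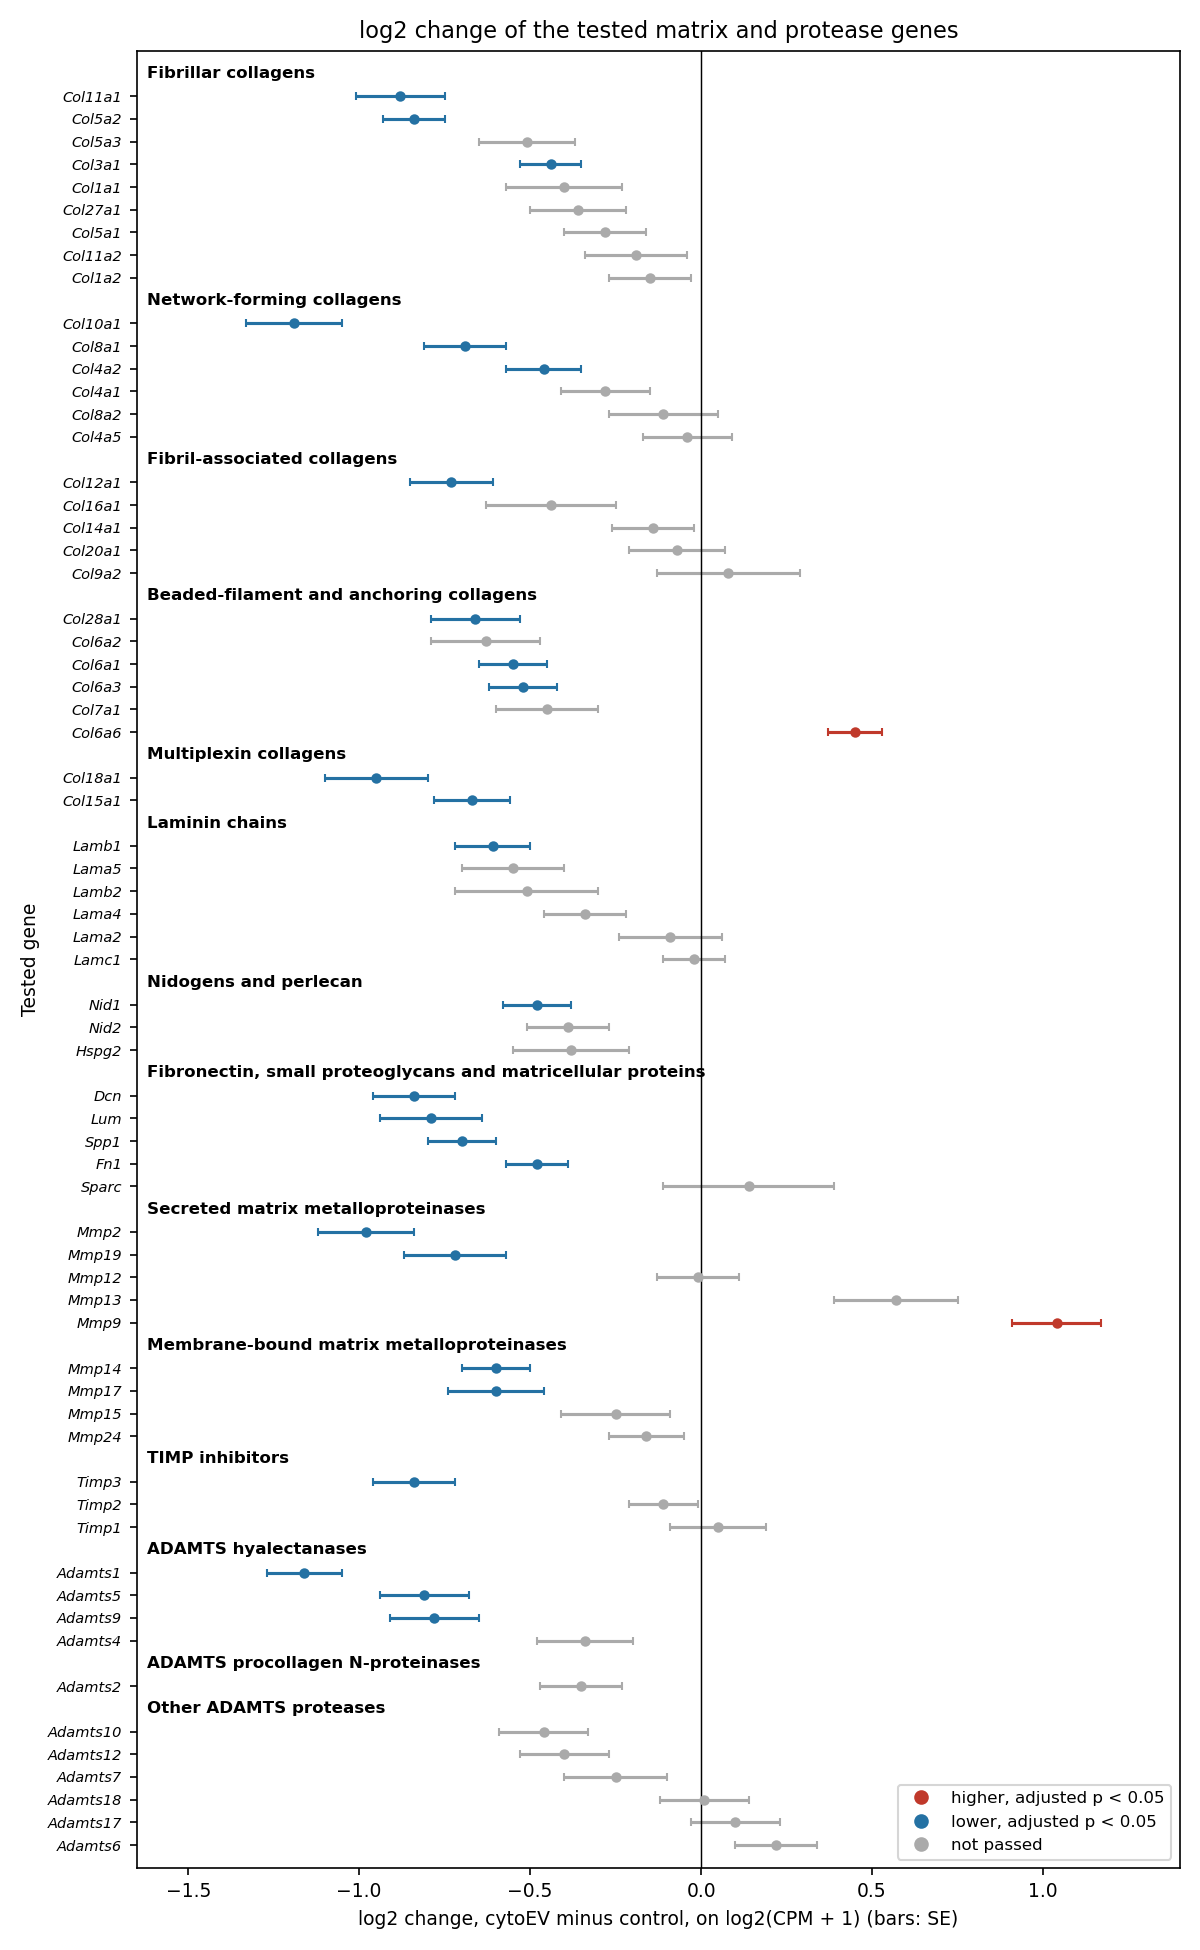
Log2 change (cytoEV minus control, on the log2(CPM + 1) scale) of 65 of the tested matrix and protease genes, one row per gene under its functional group, with bars for limma's SE. Of the 65 points, 26 are marked as lower and 2 as higher at an adjusted p under 0.05, from -1.19 for Col10a1 to 1.04 for Mmp9.

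The stretches of genome just before the transcription start are shown for the 3 fallen genes with the smallest p that have an entry in the RefSeq promoter table (GRCm38.p6) and for the risen gene that has one, leaving out bases inside the annotated gene. Capitals mark matches, on either strand, to 6 motifs that are named with their shares after the sequences. The stretch of Adamts1 lies at chr16:85803114-85803363 on the minus strand, that of Col10a1 at chr10:34389731-34389980 and that of Spp1 at chr5:104434861-104435110 on the plus strand, and that of Col6a6 at chr9:105828161-105828335 on the minus strand, each read 5′ to 3′ toward the gene.
Adamts1: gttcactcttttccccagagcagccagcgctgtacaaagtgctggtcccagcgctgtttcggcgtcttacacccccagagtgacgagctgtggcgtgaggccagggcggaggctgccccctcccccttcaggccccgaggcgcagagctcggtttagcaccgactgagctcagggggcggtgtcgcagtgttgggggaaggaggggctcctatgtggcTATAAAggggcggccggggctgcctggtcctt
Col10a1: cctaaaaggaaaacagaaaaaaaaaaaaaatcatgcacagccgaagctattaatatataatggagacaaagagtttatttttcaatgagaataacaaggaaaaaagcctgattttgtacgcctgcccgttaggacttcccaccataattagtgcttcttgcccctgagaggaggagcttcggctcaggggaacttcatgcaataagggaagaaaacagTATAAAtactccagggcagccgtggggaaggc
Spp1: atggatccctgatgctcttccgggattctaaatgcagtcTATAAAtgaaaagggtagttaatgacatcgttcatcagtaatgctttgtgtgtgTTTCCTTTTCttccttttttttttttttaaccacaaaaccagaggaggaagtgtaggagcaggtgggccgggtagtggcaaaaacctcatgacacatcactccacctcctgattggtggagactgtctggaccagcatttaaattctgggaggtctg
Col6a6: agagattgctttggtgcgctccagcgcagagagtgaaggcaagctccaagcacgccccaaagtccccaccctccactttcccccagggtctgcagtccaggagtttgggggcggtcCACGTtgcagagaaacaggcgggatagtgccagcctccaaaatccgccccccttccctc
Adamts1 and Col10a1 each had a TATAAA that began 32 bases before the start. Spp1 had one 211 bases before the start and an ISRE match 157 bases before it, and Col6a6 an ACGTG match 134 bases before it, in a stretch that ends 76 bases before the start. The marked matches do not overlap one another.

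Of the 109 genes, 76 had a promoter entry, each window covering 250 bases before and 50 after the start, and these held 17 of the fallen genes and 1 of the risen ones. A TATA box, searched as TATAAA, occurred in 4 of the 17 (Adamts1, Col10a1, Col3a1 and Spp1) and in 13.6% of all 32817 windows. The AP-1 site, searched as TGANTCA, was found in 1 of the 17 (Col6a1) and in 7.8% of all windows. The interferon-stimulated response element (ISRE), searched as GAAA repeated after a gap of 2 bases, was found in 1 (Spp1) and in 3.4% of all windows. The GAS element, searched as TTCNNNGAA, was found in 1 (Col28a1) and in 8.3% of all windows. The hypoxia response element, searched as ACGTG, was found in 1 (Mmp14) and in 19.6% of all windows. A 10-base NF-kB consensus was in 4.8% of all windows and in no window of the 17. The Col6a6 window held the hypoxia response letters. These matches are descriptions of letters in a window.

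Fibrillar collagens form the load-bearing fibrils of connective tissue. Of 9 tested, 3 fell, where 39.4% of the 66 tested matrix genes and 3.51% of all tested genes were lower. The counts of this and the later groups stand beside these shares, and no group was tested as a set. Col5a2, a chain of collagen V that nucleates collagen I fibrils, stood at 48.0 and 49.6 CPM in cytoEV islets and at 92.0 and 84.7 CPM in control islets. Its groups were far apart and its log2 change was -0.84 ± 0.09 (SE, limma adjusted p = 0.0010). Col11a1, a minor fibrillar chain best known from cartilage, passed the filter through the control libraries alone. Its fall thus follows in part from the filter. It was at 0.217 and 0.301 CPM in cytoEV islets and at 1.39 and 1.25 CPM in control islets, a 5.08-fold lower mean (log2 change -0.88 ± 0.13 SE, limma adjusted p = 0.0054). Both calls held without each library in turn.

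Col3a1, the chain of collagen III, was the most abundant of the group per length of exon, at 9.98 CPM per kb over the 4 libraries. It stood at 81.3 and 84.8 CPM in cytoEV islets and at 119.3 and 106.5 CPM in control islets (log2 change -0.44 ± 0.09 SE, limma adjusted p = 0.0278). Its adjusted p was 0.456 without cytoEV replicate 1 and 0.263 without cytoEV replicate 2. The chains of collagen I did not pass. Col1a1 was at 45.2 and 52.4 CPM in cytoEV islets and at 79.2 and 52.8 CPM in control islets, where control replicate 2 lay just above cytoEV replicate 2 (limma adjusted p = 0.203). Without control replicate 2, Col1a1 was among the genes that gained a call. Col1a2 was at 58.0 and 64.1 CPM in cytoEV islets and at 75.7 and 60.8 CPM in control islets, and its groups overlapped (limma adjusted p = 0.492). The other collagen V chains, Col5a1 and Col5a3, had log2 changes of -0.28 ± 0.12 and -0.51 ± 0.14 (SE) and did not pass in limma. Col5a3 passed in DESeq2 (adjusted p = 0.00607), with the replicate block (0.0283) and without control replicate 1 (0.0432) or 2 (0.00106).

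Network-forming collagens make sheets and lattices. Of 6 tested, 3 fell. Col10a1, a short-chain collagen best known from growth plate cartilage, stood at 2.18 and 2.83 CPM in cytoEV islets and at 7.44 and 6.54 CPM in control islets. This was the largest fall among the matrix genes on the log2(CPM + 1) scale, at -1.19 ± 0.14 (SE, limma adjusted p = 0.00151). Col8a1, a chain of the collagen VIII of vessel walls, was at 8.84 and 9.20 CPM in cytoEV islets and at 16.4 and 14.0 CPM in control islets (log2 change -0.69 ± 0.12 SE, limma adjusted p = 0.0111), and leaving out cytoEV replicate 1 gave 0.0637.

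Collagen IV, the sheet-forming collagen of basement membranes, was represented mainly by Col4a1 and Col4a2, whose products assemble with each other. These genes lie head to head on chromosome 8 (GRCm38), from 11198423 to 11312826 on the minus strand and from 11312805 to 11449287 on the plus strand, and their annotated ends overlap by 22 bases. Col4a2 stood at 25.3 and 25.8 CPM in cytoEV islets and at 38.1 and 33.1 CPM in control islets (log2 change -0.46 ± 0.11 SE, limma adjusted p = 0.0382). Its call was lost in edgeR on the recovered reads (adjusted p = 0.0503), without cytoEV replicate 1 (0.396) and without cytoEV replicate 2 (0.294). Col4a1 was at 67.4 and 71.5 CPM in cytoEV islets and at 97.6 and 73.2 CPM in control islets and did not pass (limma adjusted p = 0.243). Every cytoEV library lay below every control library for both genes, but for Col4a1 cytoEV replicate 2 and control replicate 2 were close. Whether the 2 genes differ in their response was not tested. The ratio of Col4a1 to Col4a2, per kb of exon within a library, was 2.36 and 2.46 in cytoEV islets and 2.27 and 1.96 in control islets. Col4a3, Col4a4 and Col4a6, chains of more restricted basement membranes, stayed at or under 0.192 CPM in every library, and Col4a5 at 2.41 and 2.20 CPM in cytoEV islets and 2.57 and 2.23 CPM in control islets.

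Beaded-filament and anchoring collagens moved in both directions. Collagen VI is a microfibrillar collagen assembled from one chain each of Col6a1 and Col6a2 with a further chain, usually Col6a3. Col6a1 stood at 18.9 and 19.5 CPM in cytoEV islets and at 29.8 and 27.4 CPM in control islets, and Col6a3 at 40.6 and 43.4 CPM in cytoEV islets and 64.1 and 57.5 CPM in control islets. Both fell, with log2 changes of -0.55 ± 0.10 for Col6a1 and -0.52 ± 0.10 for Col6a3 (SE), at limma adjusted p of 0.0155 and 0.0166. Col6a2 was at 11.6 and 13.9 CPM in cytoEV islets and at 24.0 and 17.1 CPM in control islets and missed the threshold (limma adjusted p = 0.0558), passing without cytoEV replicate 2 (0.0167) and in DESeq2 (0.00121). Within a library, Col6a3 kept a ratio to Col6a1 of 0.785 and 0.815 per kb of exon in cytoEV islets and 0.787 and 0.770 in control islets. Col28a1, a collagen of peripheral nerve in mouse, fell to 4.02 and 4.05 CPM in cytoEV islets, against 6.31 and 7.63 CPM in control islets (log2 change -0.66 ± 0.13 SE, limma adjusted p = 0.0199).

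Col6a6, an alternative collagen VI chain that can stand in for Col6a3, went against this direction. Its mean CPM over the 4 libraries was the highest of the 109 genes, although Spp1 was above it in both control libraries. It stood at 153.5 and 158.4 CPM in cytoEV islets and at 113.2 and 114.8 CPM in control islets, with both groups tight and well apart. Its log2 change was 0.45 ± 0.08 (SE, limma adjusted p = 0.0139). Without cytoEV replicate 1 the adjusted p was 0.275 and without cytoEV replicate 2 it was 0.350. The gene lies at chr9:105687809-105828160 (GRCm38) on the minus strand next to Col6a5 and Col6a4. Col6a4 was at or under 0.307 CPM in every library, and Col6a5 was listed at 0 in all but control replicate 2, where it had 0.531 CPM. Of the 50-base stretches of Col6a6 transcripts, 3.7% also occur in another gene, mainly Col6a5. Without Col6a6, the summed level of the group was 77.2 and 83.3 CPM in cytoEV islets and 127.5 and 112.8 CPM in control islets. With it, the sums overlapped, at 230.7 and 241.7 CPM in cytoEV islets and 240.7 and 227.6 CPM in control islets. The calls of Col6a1, Col6a3 and Col28a1 were also lost without cytoEV replicate 1 (adjusted p = 0.220, 0.293 and 0.062) and without cytoEV replicate 2 (0.138, 0.108 and 0.0511).

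Fibril-associated collagens sit on the surface of fibrils. Of 5 tested, Col12a1 fell, at 4.83 and 5.03 CPM in cytoEV islets and 8.17 and 9.56 CPM in control islets (log2 change -0.73 ± 0.12 SE, limma adjusted p = 0.0102). Col16a1 was at 3.35 and 4.75 CPM in cytoEV islets and at 6.95 and 4.78 CPM in control islets and did not pass (limma adjusted p = 0.208). Both multiplexins, collagens whose ends are cut off as angiogenesis inhibitors, fell. Col18a1, the source of endostatin, stood at 17.6 and 19.3 CPM in cytoEV islets and at 42.7 and 31.1 CPM in control islets, so its mean was 2.00-fold lower. Its log2 change was -0.95 ± 0.15 (SE, limma adjusted p = 0.00686). Col15a1, which borders basement membranes, was at 15.0 and 14.3 CPM in cytoEV islets and at 25.2 and 22.7 CPM in control islets (log2 change -0.67 ± 0.11 SE, limma adjusted p = 0.00768). Leaving out cytoEV replicate 2 gave an adjusted p of 0.0664.

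Laminins are trimers of an alpha, a beta and a gamma chain that organise basement membranes. Lamc1, the widely used gamma chain, was at 35.1 and 34.5 CPM in cytoEV islets and at 35.9 and 34.7 CPM in control islets. Its groups overlapped and its log2 change was -0.02 ± 0.09 (SE, limma adjusted p = 0.925). Lamb1, the beta chain that pairs with it, fell and stood at 7.05 and 6.99 CPM in cytoEV islets and at 11.5 and 11.0 CPM in control islets (log2 change -0.61 ± 0.11 SE, limma adjusted p = 0.0138). Without cytoEV replicate 1 its adjusted p was 0.103 and without cytoEV replicate 2 it was 0.107. The alpha chains of vascular laminins did not pass: Lama4 was at 7.84 and 7.08 CPM in cytoEV islets and 9.41 and 10.1 CPM in control islets, and Lama5 at 2.33 and 3.08 CPM in cytoEV islets and 4.93 and 3.92 CPM in control islets (limma adjusted p = 0.119 and 0.0693). Lama5 passed in DESeq2 (adjusted p = 0.0249), with the replicate block (0.0110) and without cytoEV replicate 2 (0.0239) or control replicate 2 (0.00614). Lamb2, at 2.53 and 3.03 CPM in cytoEV islets and 5.79 and 3.25 CPM in control islets, had uneven control values (limma adjusted p = 0.187). Its groups did not overlap, and it passed in limma with the replicate block (adjusted p = 0.0240) but not in DESeq2 (0.0692). The log2 change of Lamb2 was -0.17 without control replicate 1 and -0.85 without control replicate 2.

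The linkers of the basement membrane had 1 call. Nid1, which bridges laminin and collagen IV, fell to 16.1 and 15.4 CPM in cytoEV islets, against 23.1 and 21.8 CPM in control islets (log2 change -0.48 ± 0.10 SE, limma adjusted p = 0.0284). Its adjusted p was 0.258 without cytoEV replicate 1 and 0.365 without cytoEV replicate 2. Nid2 was at 1.82 and 1.83 CPM in cytoEV islets and at 2.67 and 2.71 CPM in control islets, and Hspg2, which encodes perlecan, at 6.88 and 8.09 CPM in cytoEV islets and 12.0 and 8.40 CPM in control islets. Neither passed (limma adjusted p = 0.0977 and 0.208), although in both the groups did not overlap. The antisense gene Rtraf covers 8.4% of the exonic length of Nid2.

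Fibronectin, decorin, lumican and osteopontin fell, 4 of the 5 genes in their group, where 39.4% of the 66 tested matrix genes fell. Spp1, which encodes osteopontin, a secreted phosphoprotein that binds integrins, had the highest level per length of exon among the 109 genes, at 60.1 CPM per kb. It stood at 77.4 and 72.8 CPM in cytoEV islets and at 113.6 and 132.5 CPM in control islets (log2 change -0.70 ± 0.10 SE, limma adjusted p = 0.00472). A gene model on the same strand, Gm42793, covers 18.8% of its exonic length. Dcn and Lum, small proteoglycans that bind collagen fibrils, are neighbours on chromosome 10 on the same strand, 47.0 kb apart. Dcn was at 3.57 and 3.47 CPM in cytoEV islets and at 6.64 and 7.56 CPM in control islets, and Lum at 1.44 and 1.86 CPM in cytoEV islets and 3.12 and 4.08 CPM in control islets. Their log2 changes were -0.84 ± 0.12 and -0.79 ± 0.15 (SE, limma adjusted p = 0.00498 and 0.0181). The calls of Spp1, Dcn and Lum held without each library in turn.

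Fn1, fibronectin, stood at 50.9 and 49.9 CPM in cytoEV islets and at 70.2 and 71.5 CPM in control islets, the replicates of each group lying close together (log2 change -0.48 ± 0.09 SE, limma adjusted p = 0.0136). Its adjusted p was 0.241 without cytoEV replicate 1 and 0.269 without cytoEV replicate 2. Sparc, a collagen-binding matricellular protein, had the largest difference between control replicates of the 66 genes. It was at 75.2 and 78.7 CPM in cytoEV islets and at 49.5 and 97.7 CPM in control islets, so both cytoEV libraries lay between the control libraries (log2 change 0.14 ± 0.25 SE, limma adjusted p = 0.784). Its direction was set by which control library was kept: without control replicate 1 the log2 change was -0.34 (adjusted p = 0.00363), and without control replicate 2 it was 0.63 (adjusted p = 4.45e-05).

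**Figure D2:**
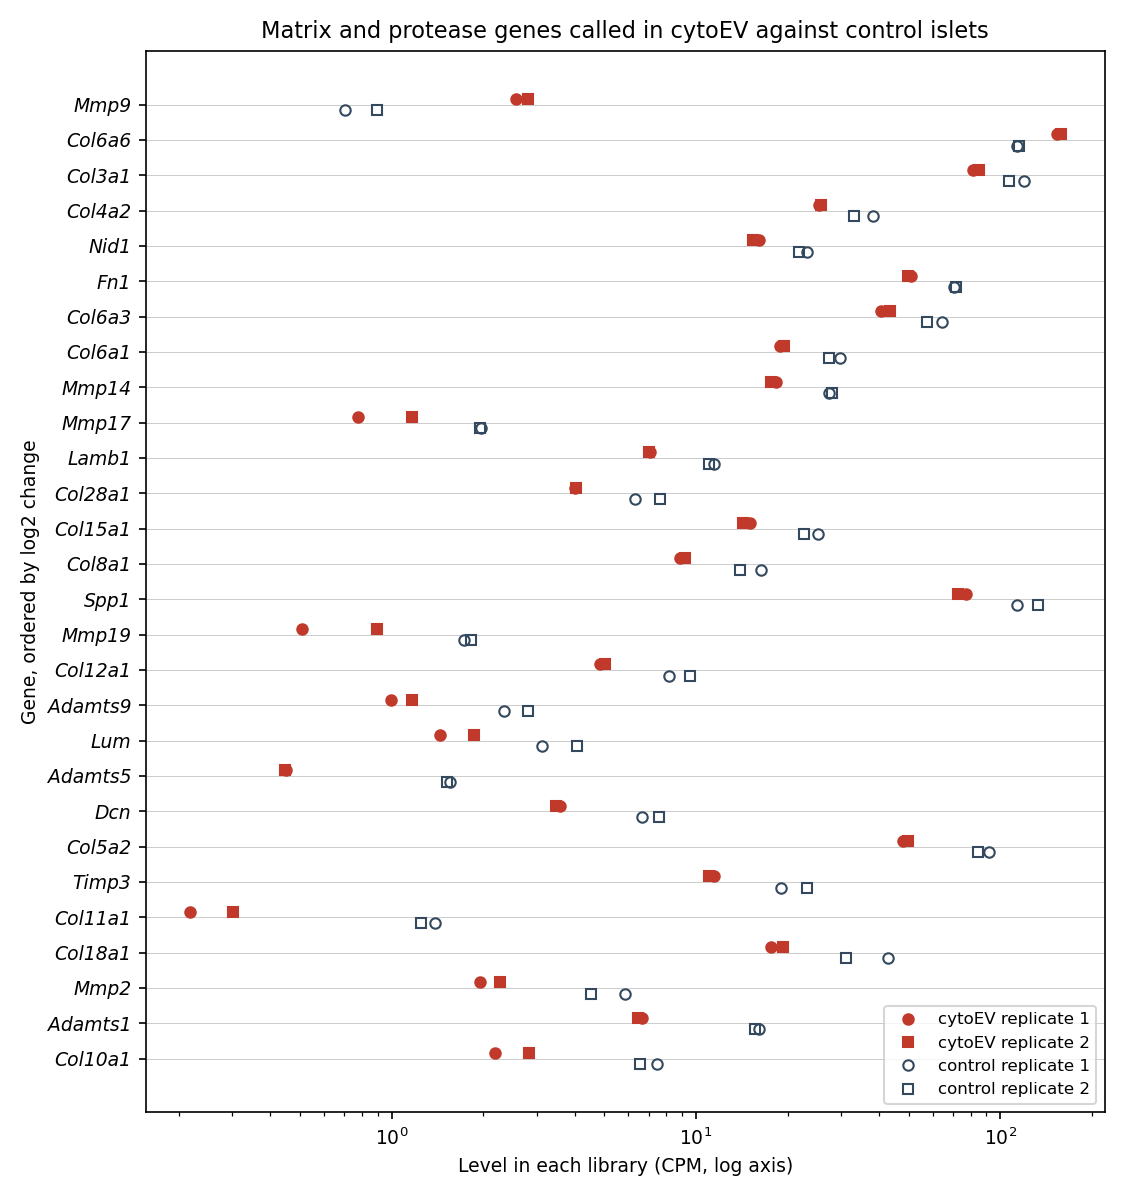
Level in each library (CPM, log axis) of 28 matrix and protease genes called at an adjusted p under 0.05, one row per gene ordered by log2 change, with filled red marks for cytoEV and open marks for control libraries. In each row the cytoEV and control marks do not overlap, and the levels run from 0.217 CPM for Col11a1 to 158.4 CPM for Col6a6.

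The gelatinases, metalloproteinases that cut denatured collagen and collagen IV, moved in opposite directions. Mmp9, a gelatinase made by many immune and stromal cells, passed the filter through the cytoEV libraries alone. Its rise thus follows in part from the filter. It stood at 2.57 and 2.81 CPM in cytoEV islets and at 0.701 and 0.896 CPM in control islets, a mean 336.2% of the control mean. Its log2 change was 1.04 ± 0.13 (SE, limma adjusted p = 0.00244). Mmp2, the gelatinase of stromal cells, was at 1.96 and 2.27 CPM in cytoEV islets and at 5.84 and 4.51 CPM in control islets (log2 change -0.98 ± 0.14 SE, limma adjusted p = 0.00540). Within a library the ratio of Mmp9 to Mmp2, per kb of exon, was 1.24 and 1.18 in cytoEV islets and 0.114 and 0.189 in control islets. Both calls held without each library in turn.

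Mmp14, a membrane-bound collagenase that activates the Mmp2 proenzyme with the help of Timp2, fell to 18.3 and 17.6 CPM in cytoEV islets, against 27.4 and 28.0 CPM in control islets (log2 change -0.60 ± 0.10 SE, limma adjusted p = 0.00897). Without cytoEV replicate 1 its adjusted p was 0.0841 and without cytoEV replicate 2 it was 0.132. Mmp17, another membrane-bound member, was at 0.776 and 1.17 CPM in cytoEV islets and at 1.97 and 1.96 CPM in control islets (limma adjusted p = 0.0437). That call ended when cytoEV replicate 1 was left out (adjusted p = 0.297), in edgeR (0.0676) and with a pseudocount of 0.1 (0.0529). Mmp19, a secreted member, passed the filter through the control libraries alone, so its fall follows in part from the filter. It was at 0.507 and 0.896 CPM in cytoEV islets and at 1.73 and 1.82 CPM in control islets (log2 change -0.72 ± 0.15 SE, limma adjusted p = 0.0257). Without cytoEV replicate 1 its adjusted p was 0.101, and in edgeR it was 0.0515. The antisense gene Tmem198b covers 22.3% of its exonic length and had 5.04 and 5.16 CPM in cytoEV islets and 5.49 and 5.48 CPM in control islets. The libraries were stranded, but the sources used here do not say whether strand entered the counting.

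The remaining tested metalloproteinases did not pass. Mmp12, the macrophage elastase and the most abundant metalloproteinase in the table per length of exon, stood at 39.6 and 37.4 CPM in cytoEV islets and at 34.7 and 43.3 CPM in control islets, with overlapping groups (log2 change -0.01 ± 0.12 SE, limma adjusted p = 0.969). Mmp13, a collagenase whose gene lies 61.0 kb from Mmp12 on chromosome 9, was at 3.97 and 3.99 CPM in cytoEV islets and at 1.80 and 3.05 CPM in control islets (log2 change 0.57 ± 0.18 SE, limma adjusted p = 0.0961). It passed without control replicate 2. The membrane-bound Mmp24 was at 16.1 and 17.2 CPM in cytoEV islets and at 20.1 and 17.3 CPM in control islets (limma adjusted p = 0.450), and the antisense BC029722 covers 13.6% of its exonic length.

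The inhibitors differed among themselves in level and in change. Timp3, the TIMP that stays bound to matrix and also inhibits ADAMTS enzymes, stood at 11.5 and 11.0 CPM in cytoEV islets and at 19.0 and 23.2 CPM in control islets (log2 change -0.84 ± 0.12 SE, limma adjusted p = 0.00517), and the call held without each library in turn. It lies at chr10:86300372-86349506 (GRCm38) on the plus strand inside the synapsin gene Syn3, which runs the other way and covers 21.3% of its exonic length. Syn3 itself was at 3.79 and 3.78 CPM in cytoEV islets and at 3.83 and 3.47 CPM in control islets. Timp2 was at 19.2 and 19.8 CPM in cytoEV islets and at 20.3 and 21.9 CPM in control islets, and Timp1, a TIMP known to respond to inflammation, at 6.33 and 4.80 CPM in cytoEV islets and 5.39 and 5.24 CPM in control islets. Neither passed (limma adjusted p = 0.583 and 0.884). The ratio of Mmp14 to Timp2, per kb of exon within a library, was 0.622 and 0.582 in cytoEV islets and 0.885 and 0.838 in control islets. That of Mmp9 to Timp1 was 0.102 and 0.147 in cytoEV islets and 0.0327 and 0.0429 in control islets. Mmp9 had passed the filter through the cytoEV libraries alone.

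**Figure D3:**
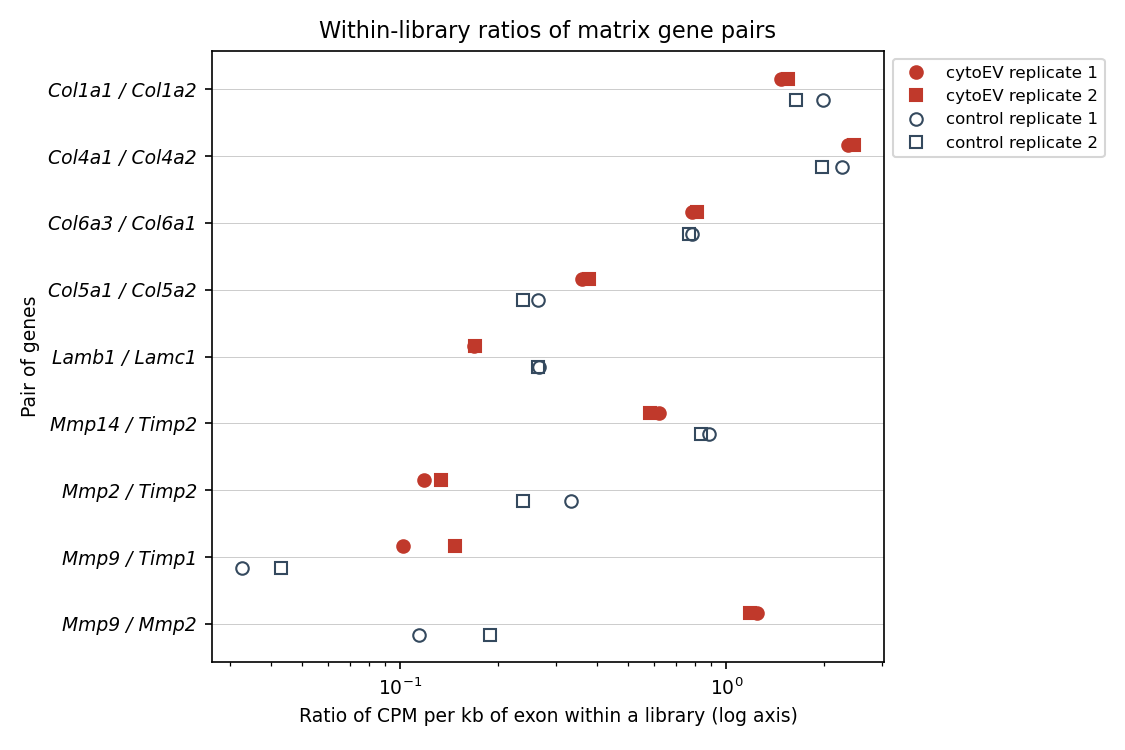
Ratio of CPM per kb of exon between 2 genes within each library (log axis) for 9 pairs of matrix genes, with filled red marks for cytoEV and open marks for control libraries. The ratio of Mmp9 to Mmp2 is 1.24 and 1.18 in cytoEV islets and 0.114 and 0.189 in control islets. Mmp9 passed the filter through the cytoEV libraries alone, so this difference follows in part from the filter. The ratio of Col6a3 to Col6a1 spans 0.770 to 0.815 over all 4 libraries. The pairs were chosen with earlier results of these data known.

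ADAMTS proteases of the hyalectanase group, which cleave proteoglycans such as versican and aggrecan, fell in 3 of 4 tested members. Of the 66 tested matrix genes 39.4% fell, and of all tested genes 3.51%. Adamts1 had the smallest p of the 66 tested genes. It stood at 6.66 and 6.45 CPM in cytoEV islets and at 16.1 and 15.6 CPM in control islets, a 2.42-fold lower mean with replicates close together (log2 change -1.16 ± 0.11 SE, limma adjusted p = 0.000433). Adamts5, next to it on chromosome 16 and 53.1 kb away on the same strand, passed the filter through the control libraries alone. The fall of Adamts5 thus follows in part from the filter. It was at 0.449 and 0.448 CPM in cytoEV islets and at 1.56 and 1.52 CPM in control islets (log2 change -0.81 ± 0.13 SE, limma adjusted p = 0.00666). Adamts9 was at 0.993 and 1.17 CPM in cytoEV islets and at 2.35 and 2.81 CPM in control islets (log2 change -0.78 ± 0.13 SE, limma adjusted p = 0.0110), and the antisense A730049H05Rik covers 9.2% of its exonic length. These 3 calls held without each library in turn. Adamts4, at 2.48 and 2.01 CPM in cytoEV islets and 3.43 and 2.79 CPM in control islets, did not pass (adjusted p = 0.194).

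The summed level of the hyalectanases was 11.1 and 10.5 CPM in cytoEV islets and 23.9 and 23.4 CPM in control islets. For the 6 other ADAMTS proteases tested the sums were close, at 16.5 and 17.8 CPM in cytoEV islets and 17.4 and 18.1 CPM in control islets, and the smallest adjusted p in limma was 0.0765, for Adamts10. The most abundant of them, Adamts6, was at 7.34 and 6.73 CPM in cytoEV islets and at 5.70 and 6.11 CPM in control islets (adjusted p = 0.306). Adamts17 was at 2.96 and 3.69 CPM in cytoEV islets and at 3.09 and 2.93 CPM in control islets (adjusted p = 0.688). Adamts2, the one tested procollagen N-proteinase, which trims the ends of procollagens, was at 2.60 and 2.78 CPM in cytoEV islets and at 3.51 and 3.94 CPM in control islets (adjusted p = 0.133).

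**Figure D4:**
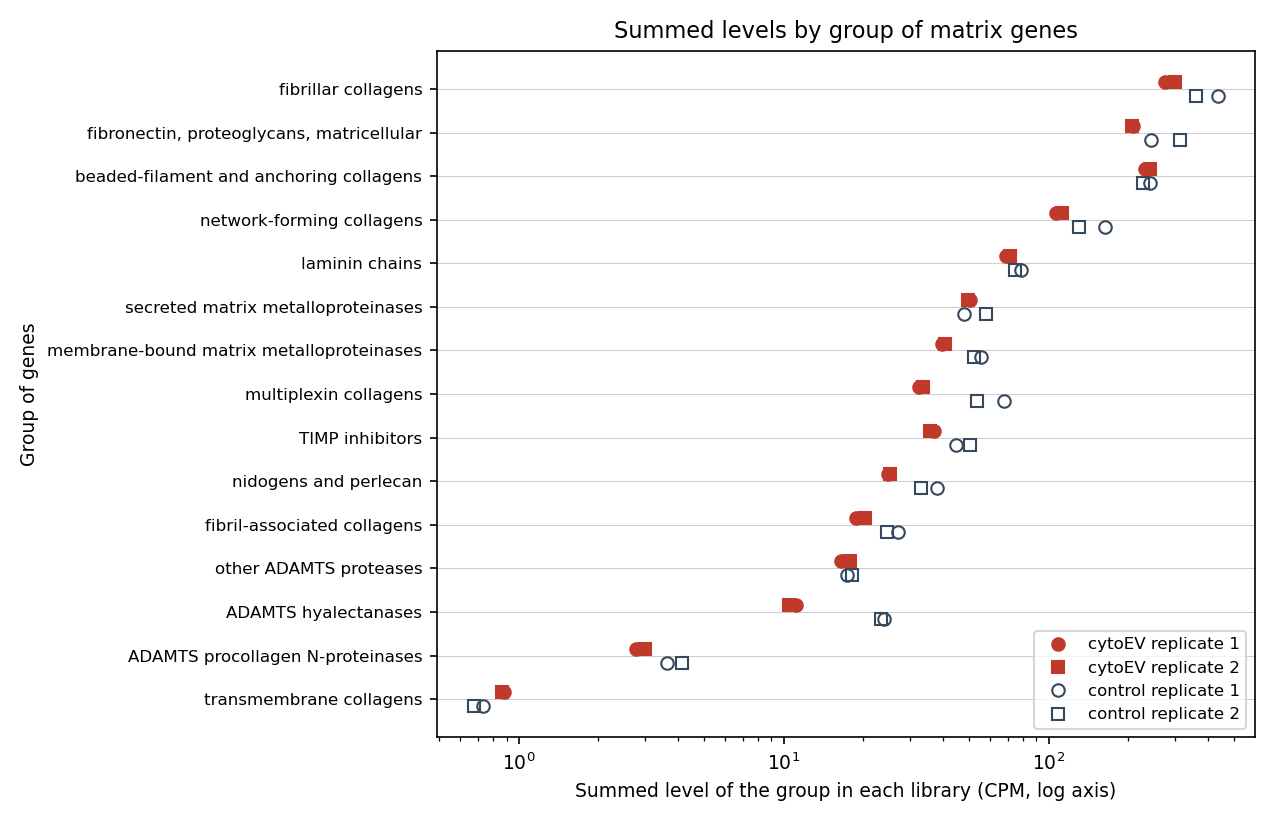
Summed level (CPM, log axis) of all genes of each of 15 functional groups in each library, with filled red marks for cytoEV and open marks for control libraries. The sums of the ADAMTS hyalectanases are 11.1 and 10.5 CPM in cytoEV islets and 23.9 and 23.4 CPM in control islets, while those of the beaded-filament and anchoring collagens overlap.

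The 43 genes under the filter reached at most 1.49 CPM in any library, and 7 of them were listed at 0 in all 4. Among them Mmp3, Mmp7, Col25a1 and Col26a1 were picked out after their values were seen. Mmp3, stromelysin-1, had 0 and 10 reads in the cytoEV libraries and 114 and 123 reads in the control libraries. Mmp7, matrilysin, known from ductal and acinar injury in the pancreas, had 0 and 6 reads in the cytoEV libraries and 62 and 64 reads in the control libraries. In the alternative with no filter their limma adjusted p were 0.0113 and 0.0241. Col25a1, a transmembrane collagen of neurons, had 110 and 90 reads in the cytoEV libraries and 32 and 35 reads in the control libraries (adjusted p = 0.0411 with no filter). Col26a1 had 69 and 94 reads in the cytoEV libraries and 24 and 27 reads in the control libraries (0.0739). Listed at 0 throughout were Adamts13, Adamts16, Adamts19, Adamts20, Mmp1a, Mmp20 and Mmp25. Mmp11 reached 1.49 CPM, and Mmp10, Mmp23, Mmp28, Adamts15, Col13a1, Col9a3 and Lamc3 had their highest library between 0.331 and 0.674 CPM. Lama1, Lama3, Lamb3, Mmp1b, Mmp8, Mmp21, Mmp27, Timp4, Adamts3, Adamts8, Adamts14, Col2a1, Col9a1, Col17a1, Col19a1, Col22a1, Col23a1 and Col24a1 stayed at or under 0.257 CPM in every library. A gene at 0 could have had up to 3 reads, or 0.0192 to 0.0231 CPM depending on the library, a limit for counting error only. This limit takes the recovered reads as sequenced reads.

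Several of these genes are neighbours in the genome. Of 7 adjacent pairs within 500 kb, with no other protein-coding gene between them and both tested, both genes fell in 3: Col3a1 with Col5a2, Dcn with Lum, and Adamts1 with Adamts5. Col3a1 and Col5a2 lie tail to tail on chromosome 1, 24.6 kb apart. In the other 4 pairs at most 1 gene passed in each. Adamts5 passed the filter through the control libraries alone, so the result for its pair follows in part from the filter. Taken singly, 39.4% of the 66 tested matrix genes fell, and the share for adjacent pairs over all genes was not computed. Whether neighbouring genes change together was not tested.

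Other matrix genes, from lists of processing enzymes, elastic fibre and matricellular proteins, further proteases and TGF-beta components, also leaned lower. Of 88 tested, 17 fell (19.3%) and 5 rose (5.68%), where 3.51% of all tested genes were lower and 3.16% higher. Adamtsl1, Htra1 and Smoc2 passed the filter through the control libraries alone, and among the other 85 genes 14 fell and 5 rose, with a median log2 change of -0.18. Without cytoEV replicate 2, 10 of the 88 fell, without control replicate 1, 28 fell, and without control replicate 2, 35 fell, where 2.37%, 10.9% and 15.8% of all tested genes were lower. Each of the 5 that rose lost its call in limma without either cytoEV library, where 5 and 6 of the 88 were higher at an unadjusted p under 0.05. Among 22 genes of collagen processing and crosslinking, P4ha1, P4ha2, P4hb, Plod2 and P3h1 fell. P4ha1 and P4ha2 encode the catalytic subunits of prolyl 4-hydroxylase, which stabilises the collagen triple helix. P4ha1 stood at 105.8 and 101.7 CPM in cytoEV islets and at 186.5 and 213.4 CPM in control islets, and P4ha2 at 30.7 and 30.0 CPM in cytoEV islets and 61.9 and 57.0 CPM in control islets. Their log2 changes were -0.94 ± 0.09 and -0.95 ± 0.09 (SE, limma adjusted p = 0.000643 each). P4hb, the other subunit and a general protein disulfide isomerase, stood at 1577 and 1571.9 CPM in cytoEV islets and at 2012.1 and 2133.6 CPM in control islets (log2 change -0.40 ± 0.08 SE, limma adjusted p = 0.0218). Leaving out cytoEV replicate 1 gave P4hb an adjusted p of 0.522, and leaving out cytoEV replicate 2 gave 0.479. For P3h1 these were 0.278 and 0.50, and its adjusted p in edgeR was 0.0607. Plod2 had an adjusted p of 0.273 when cytoEV replicate 2 was left out.

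Among 34 elastic fibre, proteoglycan and matricellular genes, Fbln2, Fmod, Thbs2, Smoc2 and Sparcl1 fell, and Npnt, Tnr and Tgfbi rose. Fbln2, a fibulin of basement membranes and elastic fibres, was at 3.78 and 4.45 CPM in cytoEV islets and at 9.79 and 8.18 CPM in control islets (log2 change -0.96 ± 0.13 SE, limma adjusted p = 0.00423). Fmod, fibromodulin, was at 2.52 and 2.42 CPM in cytoEV islets and at 4.76 and 4.99 CPM in control islets. Npnt, nephronectin, a basement membrane protein that binds integrins, was at 83.8 and 82.2 CPM in cytoEV islets and at 55.2 and 58.6 CPM in control islets (log2 change 0.54 ± 0.09 SE, limma adjusted p = 0.00866). Its adjusted p was 0.186 without cytoEV replicate 1 and 0.129 without cytoEV replicate 2. The calls of Tnr and Tgfbi were likewise lost without either cytoEV library, with adjusted p between 0.194 and 0.256. Sparcl1 lost its call without cytoEV replicate 1 (adjusted p = 0.381) or 2 (0.201), and Smoc2 without cytoEV replicate 2 (0.0966).

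Of 22 genes of the plasminogen system and other proteases and regulators, Adam8, Htra1, Furin, Plat and Adamtsl1 fell and Plau rose. Adam8 was at 7.46 and 8.70 CPM in cytoEV islets and at 16.1 and 15.8 CPM in control islets (limma adjusted p = 0.00275). Htra1, a secreted serine protease, was at 0.950 and 0.845 CPM in cytoEV islets and at 2.76 and 2.30 CPM in control islets (limma adjusted p = 0.00540). Furin, the convertase that activates Mmp14 and several ADAMTS enzymes, was at 43.6 and 52.7 CPM in cytoEV islets and at 112.6 and 82.5 CPM in control islets (log2 change -0.99 ± 0.15 SE, limma adjusted p = 0.00641). The plasminogen activators differed in direction. Plat, tissue plasminogen activator, was at 5.20 and 6.33 CPM in cytoEV islets and at 10.9 and 10.2 CPM in control islets, and Plau, urokinase, at 10.4 and 11.4 CPM in cytoEV islets and 6.87 and 7.57 CPM in control islets (limma adjusted p = 0.00897 and 0.0314). Leaving out cytoEV replicate 1 gave 0.0705 for Plat and 0.123 for Plau, and leaving out cytoEV replicate 2 gave 0.316 for Plau. Adamtsl1 had an adjusted p of 0.143 when cytoEV replicate 2 was left out and of 0.0639 in edgeR. Of 10 genes of TGF-beta ligands, receptors and latent binding proteins, Ltbp1 and Tgfb3 fell and Tgfbr3 rose. Ltbp1, which holds latent TGF-beta in the matrix, was at 2.05 and 1.81 CPM in cytoEV islets and at 3.28 and 3.44 CPM in control islets, Tgfb3 at 2.28 and 2.06 CPM in cytoEV islets and 3.95 and 3.53 CPM in control islets, and Tgfbr3, a coreceptor, at 23.1 and 21.7 CPM in cytoEV islets and 17.1 and 15.8 CPM in control islets. All 3 lost their call without either cytoEV library, with adjusted p between 0.0530 and 0.623, and in edgeR Tgfb3 (0.0536) and Tgfbr3 (0.0515) missed the threshold.

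Summed marker levels of stromal and endothelial cells were also lower in both cytoEV libraries than in both control libraries. Summed over 14 stellate cell, pericyte and fibroblast markers, the level was 80.4 and 90.1 CPM in cytoEV islets and 110.8 and 110.4 CPM in control islets. Of 12 tested, 5 fell (Kcnj8, Mcam, Notch3, Abcc9 and Thy1), with a median log2 change of -0.36, where 3.51% of all tested genes were lower. When cytoEV replicate 1 was left out, Kcnj8 alone of the 5 kept its call, with adjusted p of 0.113 to 0.313 for the other 4, and when cytoEV replicate 2 was left out, Mcam lost it (0.108). Thy1 missed the threshold in edgeR (0.0761). Pdgfrb, a defining receptor of these cells, was at 24.3 and 26.4 CPM in cytoEV islets and at 32.5 and 30.1 CPM in control islets and did not pass (limma adjusted p = 0.130). Acta2, smooth muscle actin, was at 10.8 and 12.8 CPM in cytoEV islets and at 10.2 and 10.9 CPM in control islets (log2 change 0.14). Des and Pdgfra also leaned higher, with log2 changes of 0.23 and 0.22, and like Acta2 they did not pass. Tcf21, under the filter, was at 0.254 and 0.242 CPM in cytoEV islets and at 0.0848 and 0.160 CPM in control islets. Gli1 was listed at 0 in both cytoEV libraries and in control replicate 2.

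Summed over 14 endothelial markers, the level was 57.3 and 62.3 CPM in cytoEV islets and 79.2 and 74.8 CPM in control islets. Of 12 tested, 3 fell (Flt1, Pecam1 and Cdh5), with a median of -0.29, where 3.51% of all tested genes were lower. Esam, Kdr, Egfl7 and Emcn were not called and had log2 changes of 0.02, -0.09, -0.08 and -0.12. When either cytoEV library was left out, Flt1 alone of the 3 kept its call, with adjusted p of 0.247 and 0.279 for Pecam1 and 0.396 and 0.171 for Cdh5. Of 8 Schwann cell markers tested, Gfap, which passed the filter through the control libraries alone, Ngfr and Cdh19 fell, with a median of -0.22 and sums of 135.7 and 140.0 CPM in cytoEV islets and 144.4 and 145.7 CPM in control islets, most of which was Mbp. Of 7 acinar markers tested, Ctrb1, Prss2, Cpa1 and Pnliprp1 passed the filter through the control libraries alone, so their falls follow in part from the filter. Of the other 3, Bhlha15 fell, at 135.3 and 139.7 CPM in cytoEV islets and 202.4 and 190.6 CPM in control islets, and lost its call without cytoEV replicate 1 (adjusted p = 0.234) or 2 (0.135). The acinar list had sums of 154.1 and 161.1 CPM in cytoEV islets and 241.6 and 228.8 CPM in control islets, most of which was Bhlha15. Ctrb1, Prss2 and Cpa1 reached at most 6.06, 3.40 and 2.65 CPM in any library. Whether the Bhlha15 reads came from acinar cells was not tested. Cpb1 was listed at 0 in both cytoEV libraries, and Amy2b and Rbpjl in all 4 libraries. Ductal markers had a median of -0.05, and Muc1 fell among 5 tested, with Onecut1 at 0 in all libraries. Of 14 macrophage markers, Cx3cr1 rose and Cd14 fell, with a median of 0.16, and Cd14 lost its call without cytoEV replicate 1 (adjusted p = 0.0892) or 2 (0.0736). Beta cell markers had a median of 0.17, with Slc2a2 and Slc30a8 called higher (without cytoEV replicate 1 or 2 the adjusted p of Slc30a8 was 0.467 and 0.312), and alpha cell markers one of -0.04. Beside these counts, 3.16% of all tested genes were called higher and 3.51% lower, and no marker list was tested as a set. The part of these cells in the fall of the matrix genes was not tested.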

How the data were processed

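Per the labels' protocols, a stranded mRNA kit was used on the islet RNA. The submitters' processing notes list edgeR 3.1.1, R 3.6.1, StringTie 2.1.3 and TopHat2 2.0.6, and mm10 as the build, without saying what each was used for. The authors deposited CPM values, each column summing to 1000000. All values above 0 were whole multiples of their column's smallest value (within 0.01 of it), and dividing by it gave whole numbers, called reads here. Control columns were matched to the untreated samples by replicate number, on names only.

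A gene was tested if 2 or more libraries reached 1 CPM. The test was limma 3.58.1 (R 4.3.3) applied to log2(CPM + 1), with group alone in the model, a mean-dependent prior variance, and p-values adjusted by Benjamini-Hochberg across the 12780 genes. Changes on this scale understate those of low genes. Folds are ratios of mean CPM. The alternatives were other pseudocounts, filters and scalings, no trend, a replicate block, edgeR 4.0.16 and DESeq2 1.42.0 on the recovered reads, and each library left out, where the remaining library takes its spread from the other group. The tests were tried on simulated data. Positions, exonic lengths and shared stretches come from GENCODE M21 (GRCm38), and promoters from RefSeq. The members, groups, lists and gene pairs were chosen with earlier results of these data known. Every called member is named but 1, which is not reported here, with the 2 most abundant tested members and the member with the smallest p of each group, and of the other matrix genes those called. Further genes given with values were chosen after their values were seen.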

Additional observations from a re-analysis of the deposited data

How the results depend on the processing

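All 29 called matrix genes kept their call with pseudocounts of 0.5 and 5, with median centring and in DESeq2, and 26 in edgeR. With the TMM-rescaled values 27 kept it, and with quantile normalization, no trend or a pseudocount of 0.1, 28 did. With no filter, 9 kept it, and the counts fell to 149 higher and 179 lower over all genes, 9 lower among the matrix genes, and 2 higher and 5 lower among the other matrix genes. A filter of 5 CPM gave 252 higher over all genes and 8 lower among the other matrix genes, and DESeq2 gave 745 higher and 845 lower over all genes and 26 lower among the other matrix genes. With each library left out, the counts ranged from 215 to 2408 higher and 249 to 2023 lower over all genes, from 1 to 5 higher and 14 to 41 lower among the matrix genes, and from 0 to 9 higher and 10 to 35 lower among the other matrix genes. The 0 came from limma without cytoEV replicate 1 or 2, where 5 and 6 of them were higher at an unadjusted p under 0.05. Of the genes named by the rule, those whose log2 change turned sign ranged from -0.017 (without cytoEV replicate 2) to 0.22 for Adamts17, from -0.043 to 0.0037 (without control replicate 1) for Lamc1, from -0.17 to 0.15 (without control replicate 2) for Mmp12 and from -0.34 (without control replicate 1) to 0.63 for Sparc. Timp1 ranged from -0.12 (without cytoEV replicate 1) to 0.22, and the sign also turned for Adamts18, Col20a1, Col4a5, Col8a2, Col9a2 and Lama2, which were not called. Median centring moved the split over all genes to 333 higher and 513 lower, against 404 and 449. The cause was not tested.

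The replicate numbers are not stated to pair the samples, and deviations of same-numbered libraries from their group means had a correlation of -0.22 over genes. The replicate block gave 481 higher and 512 lower over all genes, 4 higher and 30 lower among the matrix genes, with Col3a1 (adjusted p = 0.0509) and Col4a2 (0.0507) losing their call. A crossed replicate block, chosen after seeing the data, gave 1469 higher and 1434 lower over all genes, 4 and 42 among the matrix genes, and 10 and 34 among the other matrix genes. Whether more depth or more samples would change the calls was not tested.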
